A study of Mus musculus with 16 samples.

Results

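The comparison described here set mouse hematopoietic stem and progenitor cells (HSPCs) without Tet2 against HSPCs with Tet2, read by the assay for transposase-accessible chromatin with sequencing (ATAC-seq). The TET2KO and P300KO_TET2KO libraries formed the Tet2-absent side, and the WT and P300KO libraries formed the Tet2-present side. This gave 8 libraries against 8, so that all 16 libraries of the series entered the comparison. Each Tet2 difference was taken inside 4 strata of 4 libraries, defined by whether p300 was present or absent and by whether the replicate numbers were 1 and 2 or 3 and 4. The WT mice carried Ep300 fl/fl without Cre, and the P300KO mice carried Ep300 fl/fl with Mx1-Cre. The TET2KO mice added Tet2-/- to the WT genotype, and the P300KO_TET2KO mice added Tet2-/- to the P300KO genotype. All groups, the WT mice included, had therefore floxed Ep300 alleles, a C57BL/6 background and injections of poly(I:C), which induces interferon and through it Mx1-Cre. Mx1-Cre acts in blood-forming cells and in other interferon-responsive tissues, whereas Tet2-/- is a germline deletion that every cell of the mouse carries. Poly(I:C) was given in young adulthood, both sexes were used, and each library pooled the HSPCs of 2 age-matched mice of the same genotype. For each library 200000 HSPCs were sorted and cryopreserved, and 50000 viable cells were assayed after thawing.

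TET2 is a dioxygenase that oxidizes 5-methylcytosine to 5-hydroxymethylcytosine, a step on the way to demethylation of DNA at CG dinucleotides. It acts at enhancers and promoters together with sequence-specific factors, and its gene is often mutated in clonal hematopoiesis, myelodysplastic syndrome and acute myeloid leukemia. In mice, loss of Tet2 is known to raise the self-renewal of hematopoietic stem cells and to expand the myeloid lineage. ATAC-seq reads open chromatin, not methylation, so the values below say how strongly a region was open relative to the other regions of the same library.

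The measure was the within-list rank percentile. The strongest 50000 peaks of each library were ranked by their −log10 p-value, the strongest peak stood near 100, and a region without a peak among the 50000 was set to 0. Merging what overlapped among the 16 lists gave 79807 regions, and the 48123 that lay in at least 8 of 16 lists were tested. A promoter was a region within 3 kb of the start of any protein-coding transcript, so a gene can have several. A region was called when the Benjamini-Hochberg adjusted p of limma was below 0.05, and every difference is given as Tet2 absent minus Tet2 present in percentile points. A percentile is relative, so a region can fall in rank because other regions rose. In these bulk libraries, weaker opening in every cell and opening in fewer cells cannot be told apart.

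The sequences of 6 regions with some of the largest differences are shown to let their content be compared, 3 that were higher without Tet2 (Ppm1h, Vrk2, Tmem17) and 3 that were lower (Gse1, Sox9, Plch2). Each is the mm10 plus strand over 121 bases centred on the median summit, and capitals mark a match to any of 16 consensus strings on either strand. The regions are named by the nearest start site of a gene.
Ppm1h, chr10:122886210-122886330: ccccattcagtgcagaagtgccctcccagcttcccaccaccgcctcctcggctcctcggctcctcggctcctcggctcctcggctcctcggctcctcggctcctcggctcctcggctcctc
Vrk2, chr11:26805060-26805180: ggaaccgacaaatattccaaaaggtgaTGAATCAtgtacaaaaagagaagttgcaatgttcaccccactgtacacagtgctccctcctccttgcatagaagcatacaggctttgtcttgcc
Tmem17, chr11:22666138-22666258: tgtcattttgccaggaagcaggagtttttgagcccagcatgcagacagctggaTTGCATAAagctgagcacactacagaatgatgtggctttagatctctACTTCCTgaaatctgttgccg
Gse1, chr8:120572700-120572820: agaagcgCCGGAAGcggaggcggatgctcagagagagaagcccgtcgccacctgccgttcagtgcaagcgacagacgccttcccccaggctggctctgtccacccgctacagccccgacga
Sox9, chr11:113172553-113172673: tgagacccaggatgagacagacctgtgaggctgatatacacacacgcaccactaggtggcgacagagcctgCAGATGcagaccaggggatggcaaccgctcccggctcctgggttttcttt
Plch2, chr4:154999507-154999627: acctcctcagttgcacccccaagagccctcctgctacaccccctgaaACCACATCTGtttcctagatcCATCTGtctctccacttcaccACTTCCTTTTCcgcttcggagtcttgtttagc

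The Ppm1h window held 10 CG dinucleotides in a run of short repeats and no match. Vrk2 held 1 CG and 1 match to the AP-1 string TGANTCA, which 4.93% of the 48123 tested windows of this length held. In the Tmem17 window lay the Cebp string TTGCNNAA (4.82% of windows) and the Spi1/Ets string AGGAAGT (14.2%). Gse1 held 12 CG dinucleotides and the CG-containing Ets string CCGGAAG (4.43% of windows). The Sox9 window held the Tal1 E-box string CAGATG (9.74%). In the Plch2 window were 2 Tal1 E-box strings, 1 Spi1/Ets string, 1 Irf string GAAANNGAA (3.73%) and 1 Runx string TGTGGT (17%), with a Runx match overlapping a Tal1 E-box and the Irf match overlapping the Spi1/Ets match. A match describes the letters in the window and is not a measured binding site. A window without a match can hold other forms of the same motif, which were not counted.

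The lists differed in ways that touch what follows. They held 86039 to 110055 peaks in replicates 1 and 2 and 130610 to 137335 peaks in replicates 3 and 4, and the files give no read counts, so the depth is unknown. The −log10 p of the 50000th peak ran from 4.11 to 21.7 in replicates 1 and 2 and from 34.8 to 64.1 in replicates 3 and 4. It was higher in both Tet2-absent libraries than in both Tet2-present libraries of 3 strata, and overlapped in the stratum with p300 present and replicates 3 and 4. By this measure signal strength thus moved with Tet2, and its part in the results was not tested. The fold enrichment of the 50000th peak was higher in both Tet2-absent libraries only with p300 present in replicates 1 and 2. With p300 present in replicates 3 and 4 it was lower without Tet2 (7.99 and 8.27 against 9.33 and 8.47), and with p300 absent it overlapped. WT replicate 1 stood apart from the other libraries, with the lowest −log10 p of the 50000th peak and the shortest peaks (median 324 bp). Spearman's correlation of the percentiles was 0.821 to 0.964 (median 0.949) between the 8 pairs of libraries that shared genotype and replicate pair, and 0.824 to 0.951 (median 0.920) between the 16 pairs of a Tet2-absent and a Tet2-present library in a stratum. Promoters of the stem and progenitor markers Kit (median percentile 91.3), Flt3 (94.2), Meis1 (83.9), Gata2 (81.5), Cd34 (81.0) and Procr (27.4) were in all 16 lists, and Ly6a was in 6. The promoters of Cd3e, Cd4, Cd8a, Cd79a, Ms4a1, Ly6g, S100a9, Ngp, Hba-a1, Slc4a1, Alas2, Cma1 and Ms4a2, which mark T, B, mature myeloid, erythroid and mast cells, were in no list. Other promoters of the same marker lists were in all 16, namely Cd3d (median percentile 92.8) and Lck (86.2) for T cells, Pax5 (85.4) for B cells, Klf1 (95.5) and Epor (81.5) for erythroid cells and Itgam (51.0) for mature myeloid cells. Ebf1 was in 15 lists, Ltf and Cd14 in 11, S100a8 in 4 and Mcpt8 in 3, so the lists do not show the sorted cells to be free of these lineages. The median percentiles of the markers, summed over a list, were 65.4 without Tet2 and 77.6 with it for mature myeloid cells, 181.8 and 174.9 for T cells and 0 and 0 for mast cells. Their part in the results was not tested.

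The deleted gene could not be checked by these lists. The Tet2 promoter region at chr3:133543815-133545379 was in 16 of 16 lists, at 80.4 without Tet2 and 81.2 with it (difference −0.80 ± 1.34, SE, adjusted p = 0.833 by limma). Past the 3′ end of Tet2, the region chr3:133463081-133463621 was in 9 lists, at 4.06 without Tet2 and 20.1 with it, and was not called (difference −16.1 ± 5.43, adjusted p = 0.177). The mean with Tet2 came mainly from the P300KO libraries (21.25 to 52.97), beside 0 to 18.42 in P300KO_TET2KO. With p300 present there was little peak on either side, with WT replicate 2 at 10.55, the other WT libraries at 0 and TET2KO at 0.242 or below. Inside the gene, intronic peaks occurred in P300KO replicate 2 (percentile 22.3) and in P300KO_TET2KO replicate 4 (7.02). The promoter thus stayed among the ranked peaks of the libraries labelled as knockouts, and the peaks do not show which exons were deleted.

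Without Tet2, 216 regions ranked higher and 197 ranked lower among 47581 tested regions outside 20 Mb of Tet2, or 0.454% and 0.414% of those tested. Together these 413 regions were 0.868% of the regions tested, and when peaks were ranked by fold enrichment the split was 138 higher to 78 lower. The counts were 53 and 45 on normal scores of the rank, 95 and 97 without P300KO_TET2KO replicate 2, and 318 and 323 without WT replicate 1. At an unadjusted p below 0.05, counting the regions near Tet2 as well, 4325 regions were higher and 2380 were lower. The median difference over all tested regions was 0.705 percentile points, and by stratum it was 1.55 and 0.068 with p300 present (replicates 1 and 2, then 3 and 4) and 0.571 and 0.016 with p300 absent. The region just inside the threshold lay near Arhgap42 (difference 24.2, adjusted p = 0.0494), and the region just outside lay near Trim37 (−22.1, adjusted p = 0.05002).

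The sign of the difference was also followed through the 4 strata. Outside 20 Mb of Tet2, 5671 regions (11.9%) were higher and 3382 (7.11%) were lower in every stratum, and 401 of the 413 called regions were among them. In 328 regions (0.689%) both Tet2-absent libraries lay above both Tet2-present libraries in every stratum, and in 204 (0.429%) they lay below. Of the 413 called regions, 203 were apart in this way. Of the higher regions 10, and of the lower regions 11, were in no more than the required 8 lists, and 2 and 2 were in lists of the higher side alone. Fewer than 4 lists of the lower side held 47 of the higher and 43 of the lower regions. Such regions passed the minimum of 8 lists mainly or wholly through the side where they were high, so their adjusted p is not given below, and their calls are no support for a difference. Among regions in all 16 lists, which the minimum does not touch, 75 of the higher and 92 of the lower calls were found. All 8 libraries without Tet2 lay above or below all 8 with Tet2 in 70 regions (0.147%), 50 of them called.

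By gene feature, the called regions were counted as promoters, introns, exons and intergenic regions. Regions that ranked higher were promoters in 80 of 216 cases (37.0%), introns in 65, exons in 11 and intergenic in 60. Regions that ranked lower were promoters in 38 of 197 cases (19.3%), introns in 60, exons in 12 and intergenic in 87 (44.2%). Over all tested regions 39.4% were promoters and 27.7% were intergenic. The median size of the difference was 23.9 points in the higher and 25.4 points in the lower regions, against 3.03 over all. In every library were 34.7% of the higher and 46.7% of the lower regions, against 58.5% of all regions.

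Away from promoters, CG dinucleotides and consensus strings were counted around the summits. In windows reaching 100 bases to each side, the 136 higher non-promoter regions held 3.48 CG dinucleotides on average, the 159 lower regions 5.34 and all regions 3.85. No CG was found in 14% of the higher, 4.40% of the lower and 8.18% of all windows. The Spi1/Ets string was in 33.8% of the higher windows and in 22.0% of the lower, the same as the 22.0% of all windows. The Cebp string showed the opposite order, with 6.62% of the higher, 16.4% of the lower and 9.73% of all windows. AP-1 strings were in 13.2%, 7.55% and 9.04%, and Ctcf strings CAGGGGGC in 1.47%, 0.629% and 4.43%, of the higher, lower and all windows. Each string is a fixed pattern, and other forms of the same motif, those of Ctcf included, were not counted. These shares describe regions that were chosen by their ranks and carry no test.

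**Figure D1:**
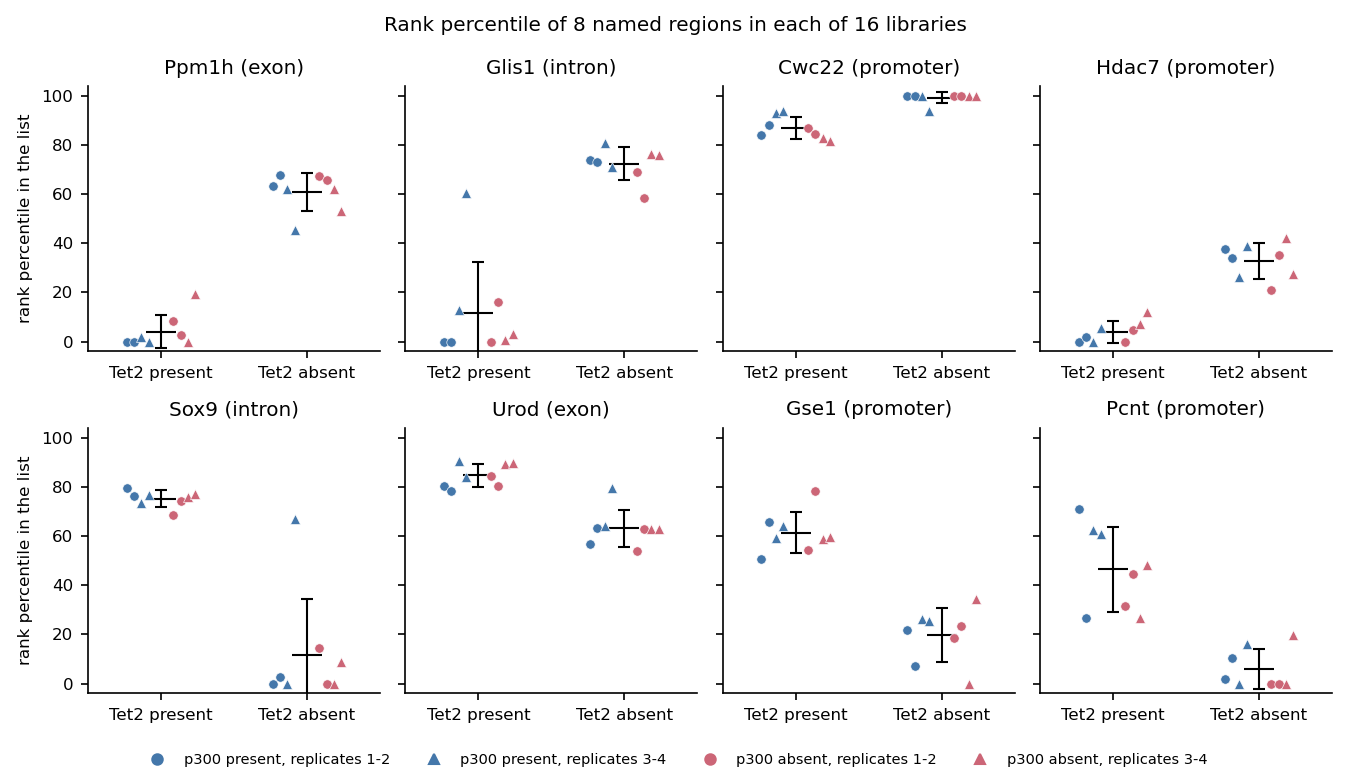
Rank percentile (vertical axis, 0 for no peak in the list and 100 for the strongest) of 8 named regions in each of the 16 libraries, by Tet2 status, with colour for p300 status and shape for replicate pair; horizontal lines are means and bars are SD over 8 libraries. The upper row holds regions that ranked higher without Tet2 and the lower row regions that ranked lower; WT replicate 4 (60.6 at Glis1) and TET2KO replicate 4 (67.0 at Sox9) lie with the other side.

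The promoters that ranked higher without Tet2 with the smallest adjusted p were those of Cwc22, Uggt2, Hdhd3, Fzd8, Noc2l and Hdac7. At Cwc22, whose product joins the spliceosome and helps to load the exon junction complex, the region chr2:77945511-77946723 stood at 93.8 to 100 (median 99.99) without Tet2 and at 81.7 to 93.9 (median 85.6) with it (difference 12.4 ± 1.39, adjusted p = 7.25e-05). Here 7 of the 8 libraries without Tet2 were at 99.99 or above, and TET2KO replicate 4 at 93.8 lay just under the highest library with Tet2. Uggt2 encodes an endoplasmic reticulum glucosyltransferase that recognizes misfolded glycoproteins, and a region upstream of its start, chr14:119052006-119052870, was at 23.4 to 60.5 (median 46.3) without Tet2 and at 0 to 11.8 (median 0) with it (40.9 ± 5.24). The sides did not overlap, and 5 of 8 libraries with Tet2 had no peak there. The Wnt receptor gene Fzd8 had its promoter at 68.1 to 82.0 (median 80.5) without Tet2 and at 42.4 to 72.6 (median 64.4) with it (16.9 ± 2.55, adjusted p = 0.00167). Overlap at Fzd8 came from TET2KO replicate 4 at 68.1 and from WT replicate 2 and P300KO replicates 1 and 3.

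Noc2l encodes a nucleolar protein that inhibits histone acetyltransferases, and its promoter chr4:156235338-156236564 ranked at 88.5 to 97.0 (median 94.2) without Tet2 and at 85.7 to 92.2 (median 89.2) with it (4.57 ± 0.70, adjusted p = 0.00182). The difference was small, with 4.65, 4.08, 4.5 and 5.06 points in the 4 strata, and the sides overlapped. Hdac7 encodes a class IIa histone deacetylase that acts in lymphoid development. Its region chr15:97828696-97829325, within 3 kb of the start, was at 20.8 to 42.1 (median 34.5) without Tet2 and at 0 to 12.2 (median 3.30) with it (28.9 ± 4.44, adjusted p = 0.00184). All 8 libraries without Tet2 lay above all 8 with it, with p300 present and with p300 absent (strata differences 35.0, 29.9, 25.6 and 25.1).

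Outside promoters, the regions that ranked higher lay near Ppm1h, Glis1, Vrk2, Atf2, Akirin1 and Tmem17. An exonic region of Ppm1h, a gene for a serine/threonine phosphatase, at chr10:122885952-122886841 had the smallest adjusted p of all tested regions. It was at 45.4 to 67.9 (median 62.7) without Tet2 and at 0 to 19.4 (median 0.916) with it (56.8 ± 5.02, adjusted p = 5.46e-06), and the sides did not overlap. In an intron of Glis1, which encodes a Gli-like zinc finger factor, the region chr4:107457442-107458067 was at 58.4 to 80.6 (median 73.7) without Tet2 and at 0 to 60.6 (median 2.00) with it (60.7 ± 6.42, adjusted p = 7.11e-05). WT replicate 4 at 60.6 was the exception among the libraries with Tet2, of which the others stood at 16 or below. The intergenic region nearest Vrk2, a gene for a serine/threonine kinase, was at 41.8 to 67.0 (median 51.4) without Tet2 and absent from 7 of 8 lists with it (49.0 ± 5.86). The remaining list was again that of WT replicate 4, at 38.0, and the sides did not overlap.

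WT replicate 4 also carried the highest Tet2-present values at Atf2 and Akirin1. An exonic region of Atf2, whose protein is a leucine zipper factor that binds cyclic AMP response elements, was at 69.0 to 80.7 (median 77.6) without Tet2 and at 0 to 63.6 (median 11.6) with it (55.2 ± 7.34, adjusted p = 0.000439). Near Akirin1, a nuclear protein gene, the region chr4:123758182-123758824 was at 33.7 to 64.9 (median 54.7) and at 0 to 36.6 (median 13.5), so that the sides overlapped (40.4 ± 5.86, adjusted p = 0.00128). The intergenic region nearest Tmem17, a gene for a membrane protein of the primary cilium, lay 154110 bp downstream of its start. It was at 66.2 to 79.3 (median 74.0) without Tet2 and at 0 to 65.1 (median 0) with it (52.1 ± 7.68). There P300KO replicates 1 and 2 and WT replicate 4 stood at 51.9, 65.1 and 56.4, and the other 5 libraries with Tet2 had no peak in the list.

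Among promoters that ranked lower without Tet2, the smallest adjusted p belonged to Gse1, Aunip, Pcnt, Ccr4, Srsf10 and Aars2. Gse1 encodes a protein found with histone deacetylase and demethylase complexes, and its region chr8:120572259-120573165 was at 0 to 34.5 (median 22.6) without Tet2 and at 50.8 to 78.5 (median 59.4) with it (−41.7 ± 5.50, adjusted p = 0.000439). The sides were fully apart and the difference was −43.7, −35.9, −45.4 and −42.0 in the 4 strata. Aunip encodes a partner of Aurora A kinase that acts at centrosomes and DNA breaks. Its region chr4:134512698-134513182 was at 0 to 31.7 (median 3.85) without Tet2 and at 35.1 to 72.8 (median 48.0) with it (−39.1 ± 5.28, adjusted p = 0.000523), again with no overlap. Pcnt, the gene of the centrosome scaffold pericentrin, had a region at chr10:76354542-76355632 at 0 to 19.7 (median 1.03) without Tet2 and at 26.5 to 71.0 (median 46.4) with it (−40.5 ± 6.37, adjusted p = 0.00220). The sides were also fully apart at Pcnt.

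The region assigned to the start of Ccr4, a chemokine receptor gene of T cells, lay inside Trim71 at chr9:114507244-114508067. It was in no list without Tet2 and in all 8 lists with it, at 7.36 to 73.8 (median 38.9, difference −41.1 ± 6.61). It passed the minimum of 8 lists through the libraries with Tet2 alone, so it had to differ. Aars2, the mitochondrial alanyl-tRNA synthetase gene, had a region at chr17:45517453-45518118 that appeared without Tet2 in P300KO_TET2KO replicate 2 alone (8.33) and with Tet2 in 7 of 8 lists, with a median of 40.9 and a highest value of 52.1 (−35.9 ± 5.91). WT replicate 1 was the library with Tet2 that had no peak there. Srsf10, a splicing factor gene, had a strong promoter in every list, at 78.9 to 87.8 (median 85.9) without Tet2 and at 85.3 to 97.1 (median 92.5) with it (−7.57 ± 1.23, adjusted p = 0.00313). The sides overlapped at Srsf10, although no stratum did.

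Outside promoters, the lower regions with the smallest adjusted p lay near Urod, Uggt2, Sox9, Skint3, Plch2 and Stk24. The region nearest the start of Urod, a gene of heme synthesis, lay in an exon of Zswim5 at chr4:116986452-116987254. It was at 53.8 to 79.5 (median 63.0) without Tet2 and at 78.2 to 90.6 (median 84.4) with it (−21.4 ± 2.31, adjusted p = 7.11e-05), and the overlap came from TET2KO replicate 4 at 79.5. At chr14:118982090-118983189, downstream of Uggt2, the values were 0 to 62.0 (median 0) without Tet2 and 66.2 to 79.0 (median 73.2) with it (−62.6 ± 6.92). Uggt2 therefore had a region that ranked higher inside the gene, near an internal start, and another, intergenic, that ranked lower. An intron of the noncoding gene 2610035D17Rik, 390389 bp from Sox9, a developmental transcription factor gene, held the region chr11:113172305-113173235 at 0 to 67.0 (median 1.37) without Tet2 and at 68.5 to 79.7 (median 76.0) with it (−63.6 ± 7.15, adjusted p = 7.25e-05). TET2KO replicate 4 was high at both regions, at 62.0 and 67.0, while the other 7 libraries without Tet2 stayed at 19.6 or below.

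In an intron of Skint3, a gene of an immunoglobulin-like family, the region chr4:112287672-112288956 was in no list without Tet2 but that of TET2KO replicate 4 (38.0), and with Tet2 it was at 34.8 to 79.1 (median 68.6, difference −59.2 ± 6.82). Plch2 encodes a phospholipase C, and its intronic region chr4:154999324-155000414 was at 0 to 36.7 (median 2.98) without Tet2 and at 32.7 to 65.5 (median 57.3) with it (−46.6 ± 5.59, adjusted p = 0.000151). The overlap at Plch2 was between TET2KO replicate 4 (36.7) and WT replicate 1 (32.7). Stk24 encodes a kinase of the Ste20 family. Its intronic region chr14:121365252-121366897 was in all 16 lists and the sides were fully apart, at 19.4 to 49.7 (median 30.7) without Tet2 and at 60.4 to 73.0 (median 71.4) with it (−36.8 ± 4.46, adjusted p = 0.000156).

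Several genes were nearest to more than a single called region. Ppm1h had 4, and they did not move together: the exonic region above ranked higher, whereas the region of an internal start at chr10:122894313-122895408 (−28.8 ± 5.24, adjusted p = 0.00776) and the intronic regions at chr10:122935220-122935876 (−42.3 ± 5.62, adjusted p = 0.000439) and chr10:122937267-122938002 (−27.0 ± 5.35, adjusted p = 0.0150) ranked lower. The internal start region was in every list, with a median of 31.2 without Tet2 and 62.0 with it. Another Ppm1h promoter, at chr10:122678402-122680004, was not called, at 77.0 without Tet2 and 77.5 with it (−0.48 ± 1.56, adjusted p = 0.923). Samsn1, which encodes an adaptor of hematopoietic cells, had an intronic region at −44.4 ± 6.04 (adjusted p = 0.000572) and an upstream region at −25.7 ± 5.05 (adjusted p = 0.0144). The intronic Samsn1 region was at 0 to 19.99 without Tet2 and at 29.6 to 69.0 with it, with no overlap. BC067074 had 3 lower regions on chromosome 13, Aunip 2 lower, and Glis1, Mdm1 and Scyl2 2 higher each. Glis1 gained its other call in an intronic region at chr4:107605562-107606730 (16 ± 3.23, adjusted p = 0.0167), where all 8 libraries without Tet2 (63.3 to 73.8) lay above all 8 with it (39.1 to 60.3).

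The regions chosen in some of the strata were read in libraries that had no part in the choice. Each of these fits took regions in at least 4 of its 8 lists. Some calls may therefore have passed mainly or wholly through the side where they were high, and such calls were not set apart. With p300 absent, 122 regions outside 20 Mb of Tet2 were called higher in P300KO_TET2KO against P300KO, and 106 of them were tested in TET2KO against WT. Of those, 99 (93.4%) were higher there too, against 59.2% of all regions, with a median of 15.3 points against 30.9 in the libraries that chose them. An unadjusted p below 0.05 in the same direction was reached by 57.5% of them and by 4.62% of all regions. For the 155 lower regions, 142 of the 148 tested in both (95.9%) were lower in TET2KO against WT, against 40.8% of all regions, and the median went from −34.1 to −11.4. Unadjusted p-values below 0.05 were reached by 49.3% of these and by 2.58% of all regions. With p300 present no region was called (2164 higher and 1372 lower at an unadjusted p below 0.05), so the reverse reading could not be made.

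**Figure D2:**
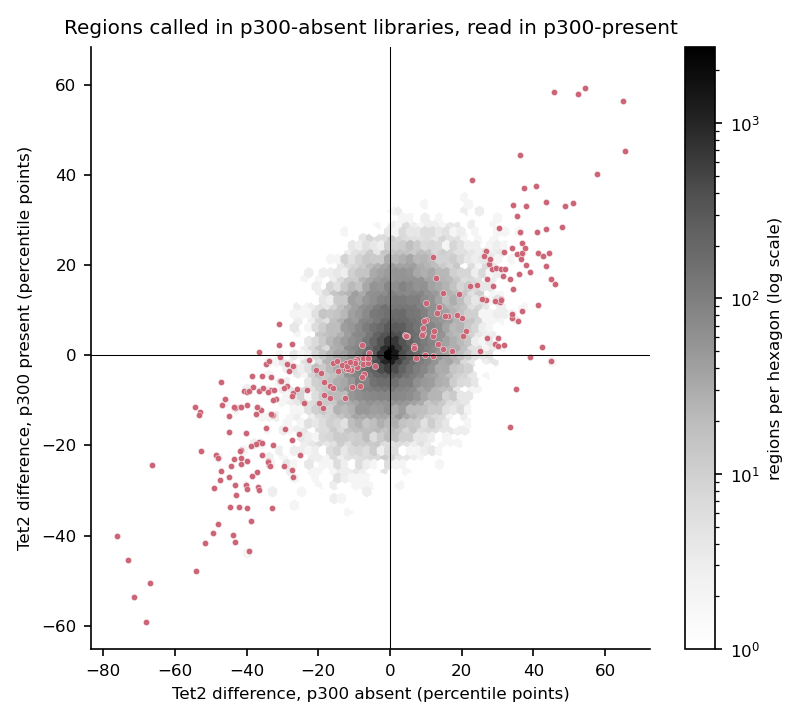
Tet2 difference in percentile points with p300 absent (horizontal axis) and with p300 present (vertical axis), which share no library; grey hexagons count all tested regions on a log scale and red points are the regions called with p300 absent. Most red points lie in the upper right and lower left, where 99 of 106 higher and 142 of 148 lower regions kept their sign.

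The same was done between replicate pairs, which also share no library. In replicates 1 and 2, 18 regions were called higher and 28 lower, and 16 of 17 and 19 of 22 of those tested in both kept their sign in replicates 3 and 4 (94.1% and 86.4%, against 51.4% and 48.7% of all regions). In replicates 3 and 4, 107 were called higher and 161 lower, and 76 of 94 and 116 of 131 kept their sign in replicates 1 and 2 (80.9% and 88.5%, against 60.7% and 39.3%). In both replicate pairs the −log10 p of the 50000th peak tended to be higher without Tet2, as given above, so these shares do not separate Tet2 from signal strength.

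No region passed the test for a Tet2 difference that depended on p300 (limma, 0 of 48123, with 1153 higher and 1534 lower at an unadjusted p below 0.05). A region past the threshold with p300 absent and not with p300 present is therefore not shown to differ between these backgrounds. The test for a Tet2 difference that depended on the replicate pair called 1 region, in an intron at chr15:93913003-93914079 nearest Prickle1, a gene of planar cell polarity. Its Tet2 difference was 40.2 points in replicates 1 and 2 and −48.6 points in replicates 3 and 4 (difference between pairs −88.8 ± 12.3, adjusted p = 0.0212). Within the first pair the libraries without Tet2 were at 50.3 to 68.0 and those with Tet2 at 0 to 36.1, and within the second pair at 6.01 to 58.1 and 62.7 to 80.1.

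The share of tested regions that were called was also counted by chromosome. On chromosome 4, 67 of 3102 tested regions were called (2.16%), 45 higher and 22 lower, which was 15.8% of the calls on 6.45% of the tested regions. Chromosome 13 followed with 39 of 2082 (1.87%), 16 higher and 23 lower. The other autosomes and X lay between 0.41% and 1.17%, and Y had 1 call among 10 regions. Cut into 535 bins of 5 Mb, the genome had 320 bins without a call and 14 bins with 5 or more. These 14 bins held 93 of the 423 calls (22.0%) and 4.39% of the tested regions, and 7 of them were on chromosome 4. At 110 to 115 Mb of chromosome 13, 11 of 123 regions were called, 1 higher and 10 lower. At 60 to 65 Mb and at 155 to 160 Mb of chromosome 4, 6 of 85 regions were called in each, all of them higher. When chromosome 4 was left out of the fit, 317 regions outside 20 Mb of Tet2 were called, all 317 of them among the 413. These counts were made after the values were seen, and whether the mice with and without Tet2 differed in these stretches beyond Tet2 was not tested.

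**Figure D3:**
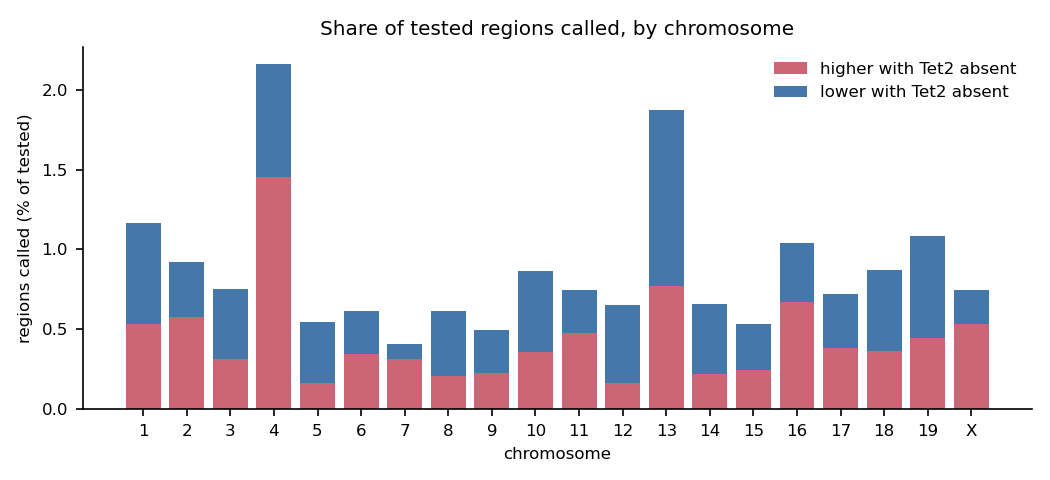
Share of tested regions called (vertical axis, percent) on each chromosome, stacked by direction; chromosome Y, with 10 tested regions, is not drawn. Chromosome 4 (2.16%) and chromosome 13 (1.87%) stand above the other chromosomes, which lie at or below 1.17%.

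Within chromosome 4, 5 adjacent regions between chr4:62496121 and chr4:62520293 were all called higher. They were an exonic region of Bspry (29.2 ± 6.29, adjusted p = 0.0236), the promoter of Hdhd3 (12.2 ± 1.69, adjusted p = 0.000705), a region upstream of it (24.7 ± 5.61, adjusted p = 0.0331), an intronic region of Alad (31.0 ± 5.88, adjusted p = 0.0106) and the promoter of Alad (12.1 ± 2.2, adjusted p = 0.00776). Alad encodes the enzyme of the porphobilinogen step of heme synthesis, and Hdhd3 a hydrolase-like protein. The Hdhd3 promoter was at 82.4 to 99.9 (median 97.0) without Tet2 and at 76.1 to 88.8 (median 83.5) with it. TET2KO replicate 4 was the lowest of the libraries without Tet2, at 82.4 against 94.9 to 99.9 in the other 7, and it had no peak in the intronic region of Alad. The neighbours on either side were not called, at 2.42 ± 1.79 for the Bspry promoter, −0.945 ± 0.581 for the promoter of 4933430I17Rik and 2.01 ± 3.19 for Rgs3. Stretches that hold Alad and Hdhd3, and others that hold Cwc22, are known to vary in copy number among mouse strains. Copy number was not measured in these lists, and its part in the result was not tested.

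**Figure D4:**
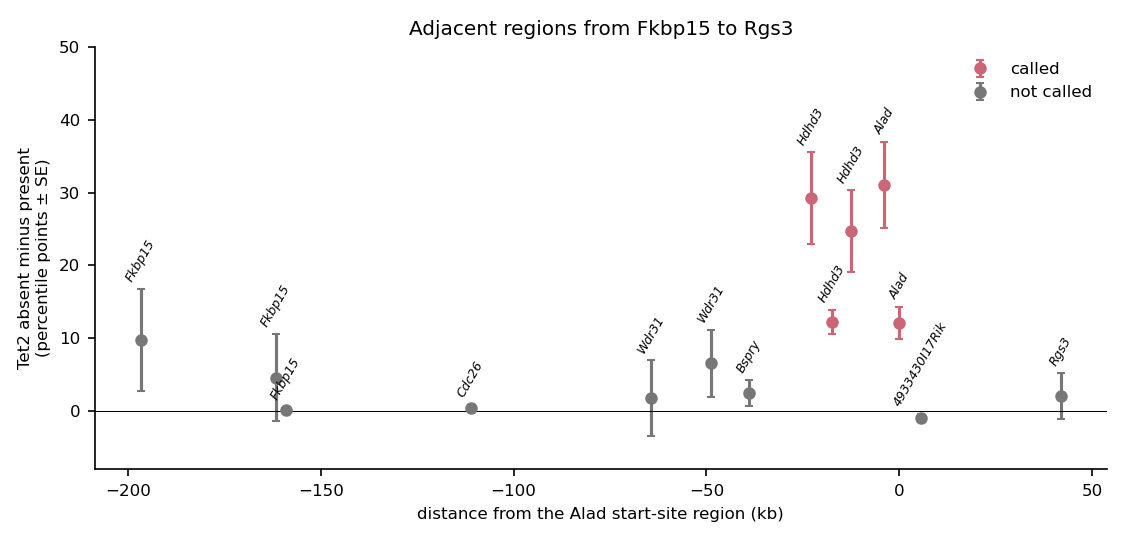
Tet2 difference ± SE in percentile points (vertical axis) of adjacent tested regions, by distance in kb from the Alad start-site region (horizontal axis), each labelled with the gene of the nearest start; red points are called. The 5 called regions lie together, with differences from 12.1 to 31.0, between neighbours near 0.

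Across the 423 called regions, each library was counted where it lay nearer to the median of the other side than to that of its own. TET2KO replicate 4 did so in 165 regions (39.0%), the most of all libraries, and WT replicate 4 in 107 (25.3%), the most of those with Tet2. The lowest counts were 19 in P300KO_TET2KO replicate 3 (4.49%) and 23 in WT replicate 2 (5.44%). The 4 P300KO_TET2KO libraries were between 19 and 38, and the 4 TET2KO libraries between 71 and 165. Since the regions were called on these libraries, the counts are a description. Without TET2KO replicate 4 the count outside 20 Mb of Tet2 was 418, of which 342 were among the 413.

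Regions within 20 Mb of Tet2 on chromosome 3 are given apart, because they are linked to the deleted allele in breeding. There 10 of 542 tested regions were called (1.85%, against 0.868% elsewhere), 2 higher and 8 lower. The count was 0 with p300 present alone, 1 in replicates 1 and 2 alone, 13 in replicates 3 and 4 alone and 7 to 17 when a library was left out. By distance from the Tet2 start, 5 of 153 were called within 5 Mb (3.27%), 2 of 94 at 5 to 10 Mb (2.13%), 3 of 168 at 10 to 15 Mb (1.79%) and 0 of 127 beyond. The same sign in all 4 strata was found in 108 regions (19.9%, against 11.9% higher and 7.11% lower elsewhere), and 11 (2.03%, against 0.689% and 0.429%) did not overlap in any stratum. The share with the same sign was thus near that of the rest of the genome. A region upstream of Sec24b, which encodes a coat protein of vesicles that leave the endoplasmic reticulum, at chr3:130090177-130090906 was in all 8 lists without Tet2 (21.0 to 49.1, median 35.4) and in none with it (35.5 ± 4.45). It passed the minimum of 8 lists through the libraries without Tet2 alone, so it had to differ. The other higher region lay near Pdha2 (32.0 ± 6.30). The promoter of Eif4e, the cap-binding initiation factor gene, ranked lower, at 78.4 to 89.4 (median 84.3) against 86.9 to 96.2 (median 90.8; −6.62 ± 1.03, adjusted p = 0.00202). An intergenic region nearest H2afz, the gene of histone H2A.Z, was at 21.1 to 56.6 (median 53.2) without Tet2 and at 64.6 to 76.6 (median 70.6) with it (−23.5 ± 3.59, adjusted p = 0.00181), with no overlap. An intronic region of Bcar3, an adaptor gene, was also fully apart, at 9.89 to 38.5 against 48.1 to 71.3 (−31.2 ± 5.28, adjusted p = 0.00418). The other lower regions were those of Cnn3 (−34.3), Synpo2 (−30.1), Mcub (−16.9), Elovl6 (−15.4) and Stpg2 (−12.2).

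Of 9 gene lists chosen for their place in blood formation, none held more than 1 called region in a direction. Each list was read over the tested regions assigned to its genes, beside the median of 0.705 and the 0.868% called outside 20 Mb of Tet2. DNA methylation machinery (62 regions) had no call and a median difference of 0.131. Stem cell regulators (148 regions, median 0.905) had 1 higher region, upstream of Fgd5, a gene marking hematopoietic stem cells (13.8 ± 3.32, adjusted p = 0.0480), although its difference in the stratum with p300 present and replicates 3 and 4 was −0.825. In the myeloid list (86 regions, median 0.814) 1 region was lower, upstream of Csf1r, the receptor of macrophage colony-stimulating factor (−20.7 ± 4.88, adjusted p = 0.0415). Another region assigned to Csf1r, exonic and nearest the start of Hmgxb3, went the other way and did not pass (21.47 ± 5.325, adjusted p = 0.0552 by limma). Lymphoid genes (98 regions, median 0.646) had 1 lower region, in an intron of Dntt, the terminal transferase of early lymphocytes. The Dntt region was at 14.3 to 67.6 (median 44.5) without Tet2 and at 57.8 to 77.5 (median 71.7) with it (−25.9 ± 5.06, adjusted p = 0.0134), and the sides overlapped.

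The inflammatory cytokine and NF-kB list (84 regions, median 0.849) had 1 lower region, assigned to Tnfrsf1b, a tumor necrosis factor receptor gene, and nearest to the start of Vps13d (−9.96 ± 2.08, adjusted p = 0.0202). No region was called in the erythroid and megakaryocyte list (56, median 0.559), the interferon response list (77, median 1.08), the cell cycle and Myc list (86, median 0.320) or the AP-1 list (63, median −0.109). Regions with an unadjusted p below 0.05 numbered 4 higher and 4 lower, 3 and 2, 6 and 5, and 3 and 4 in these lists. In the other lists they numbered 18 and 6 of the stem cell regulators (12.2% and 4.05%), 9 and 2 of the DNA methylation machinery (14.5% and 3.23%), 9 and 8 of the myeloid, 7 and 6 of the lymphoid and 9 and 7 of the inflammatory list, beside 8.99% and 4.95% of all tested regions. Regions at Ier2, an immediate early gene (22.7, adjusted p = 0.0564), Spi1, the gene of the myeloid factor PU.1 (22.9, adjusted p = 0.0929), Hoxb4, a homeobox gene of stem cells (21.6, adjusted p = 0.0893), Trp53 (18.3, adjusted p = 0.0729) and the chemokine gene Ccl3 (−18.1, adjusted p = 0.0502) were among the 3 with the smallest p of their lists and did not pass.

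Over whole lists, peaks were longer without Tet2. The median peak length among the strongest 50000 was 612 ± 59.3 bp (SD, n = 8, 497 to 663) without Tet2 and 527 ± 109 bp (SD, n = 8, 324 to 627) with it, a difference of 85.2 bp (exact permutation within strata, two-sided, every arrangement, p = 0.00154, the smallest they can give, and adjusted p = 0.00926 over 6 measures). The difference was 126 and 13.2 bp with p300 present and 149.5 and 52.0 bp with p300 absent (replicates 1 and 2, then 3 and 4), and the sides overlapped. The call was lost without TET2KO replicate 1 (79.2 bp, adjusted p = 0.148) and without TET2KO replicate 2 (91.2 bp, adjusted p = 0.0833, exact permutation). Both peak length and the −log10 p of the 50000th peak given above tended to be higher without Tet2, and the part of signal strength in the length was not tested. The other 5 measures did not pass, with 39.9% against 39.7% of peaks at promoters (adjusted p = 0.762, exact permutation) and a difference of −0.00295 in the mean number of CG at non-promoter summits (adjusted p = 0.997).

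Of 16 consensus strings counted at the non-promoter summits of the lists, 0 passed by exact permutation within strata, and 6 had an unadjusted p below 0.05, each with the same sign in 4 of 4 strata. The NF-kB string GGANNTTCC was at 2.95% ± 0.0677 of summits without Tet2 and 2.79% ± 0.132 with it (SD, n = 8, exact p = 0.00463, adjusted 0.0741). Spi1/Ets strings stood at 22.1% ± 1.003 and 20.9% ± 2.02 (exact p = 0.0262, adjusted 0.0840), with WT replicate 1 at 16.1%. The Spi1/Ets difference of 1.18 points became 0.511 without WT replicate 1 (exact p = 0.091) and 1.84 without WT replicate 2 (exact p = 0.00309, adjusted 0.0247). AP-1 strings stood at 9.21% ± 0.322 and 8.81% ± 0.265 (exact p = 0.0170, adjusted 0.0840). The 3 strings of these that were lower each hold a CG, with differences of −0.0267 points for CRE TGACGTCA (exact p = 0.0123), −0.118 for the Myc E-box CACGTG (exact p = 0.0231) and −0.0180 for Nrf1 GCGCANGCG (exact p = 0.0355). The adjusted p of these was 0.0840, 0.0840 and 0.0947 by the same exact test. The other strings that hold a CG, those of Ets, Runx and Myb, had an exact p of 0.102, 0.543 and 0.810. In other settings the number of strings that passed was 1 with 30000 peaks per list, 6 with 80000 and 5 by fold enrichment.

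**Figure D5:**
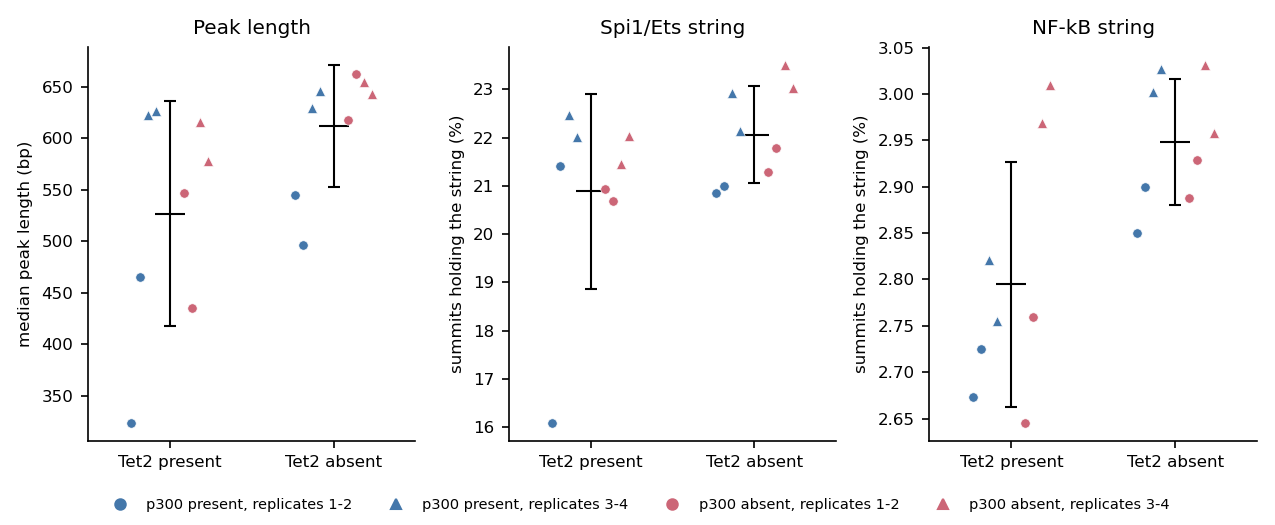
Median peak length in bp and the percent of non-promoter summits that hold the Spi1/Ets or the NF-kB string (vertical axes, not from 0), for each of 16 libraries by Tet2 status; colours and shapes give p300 status and replicate pair, lines are means and bars are SD over 8 libraries. Means are 612 against 527 bp, 22.1% against 20.9% and 2.95% against 2.79%, and the sides overlap in all 3 panels.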

How the data were processed

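HSPC ATAC-seq was analysed from 1 peak list per library, 4 libraries for each of WT, P300KO, TET2KO and P300KO_TET2KO. Per the labels and the submitters' processing notes, the authors trimmed reads with cutadapt 1.9.1, aligned them to mm10 with Bowtie2 2.2.6 and called peaks library by library with MACS2 2.1.0. Per the study's methods, duplicates were removed and reads shifted for Tn5 before peaks were called. The deposited columns used were the −log10 p-value and the fold enrichment ratio of each peak, as MACS2 wrote them, with its summit. Read counts and depth are unknown, so no count test was run and the number of libraries limits the precision.

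The strongest 50000 peaks of each list by −log10 p were taken so that lists of unequal length could be compared. Peaks of the 16 lists that shared at least 1 bp were merged, and each region took the percentile of its best peak in each library. A region was assigned to the nearest protein-coding start in GENCODE (mm10) by its median summit, and was a promoter within 3 kb of it. Regions in at least 8 of 16 lists were fitted with limma 3.58.1 (R 4.3.3, trend on the mean percentile) on Tet2 status and 4 strata, and p-values were adjusted by Benjamini-Hochberg over all tested regions at 0.05. Whole-list measures were tested by exact permutation of Tet2 labels within strata (all arrangements, two-sided). Tables were handled with Python 3.11.15, pandas 2.3.3, numpy 2.4.6 and pysam 0.24.0, and figures with matplotlib 3.10.9. The statistics were tested on simulated data.

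The named regions were the 6 with the smallest adjusted p in each direction at promoters and elsewhere with the same sign in all 4 strata, at most 1 per gene and off X and Y, then the 6 with the smallest p within 20 Mb of Tet2, regions at Tet2, the 8 genes with most called regions in a direction, and the called regions of 9 gene lists. Any other region in the text was picked with its values in view. The members and lists were chosen with earlier results of these data known. Libraries pooled 2 mice each, so p-values measure the spread between pools. Replicate numbers did not pair the libraries of a stratum (correlations of deviations −0.0251, −0.0925, −0.0153 and −0.0703), and what separates replicates 1 and 2 from 3 and 4 is not given in the sources used here. Alternatives changed the list size, the ranking column, the list minimum, the rank scale, the strata and the libraries, and leaving out chromosome 4 was added after seeing the data. Some markers, and the sums of their lists, are not reported here.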

Additional observations from a re-analysis of the deposited data

Results flagged for a closer look

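Within a genotype, a library whose gap to the nearest other library exceeded the Dixon limit was noted in 23 of 208 groups of 4 (11.1%), where chance flags about 1 in 20 groups. Many of these groups hold zeros, for which any single peak passes that limit. WT replicate 4 was high among the WT libraries at the Uggt2 promoter (11.8), at Vrk2 (38.0), Atf2 (63.6) and Tmem17 (56.4), and low at H2afz (64.6). TET2KO replicate 4 was low at the Cwc22 promoter (93.8) and high at Sox9 (67.0) and Skint3 (38.0), and had the lowest share of summits with the CG-containing Ets string among the TET2KO libraries (2.56%). WT replicate 3 was at 1.83 at the Ppm1h exon and the other WT libraries at 0. WT replicate 1 was high at Bcar3 (71.3) and low in Spi1/Ets strings (16.1%) and CG-containing Runx strings (4.42%). WT replicate 2 was low in intergenic peaks (26.9%) and high in Gata strings (10.4%) and CG-containing Myb strings (2.11%). P300KO replicate 2 had the lowest share of summits with no CG among the P300KO libraries (8.04%). P300KO_TET2KO replicate 1 was low at Urod (53.8), and replicate 4 was high at Pcnt (19.7). P300KO_TET2KO replicate 2 was high in Myb strings (11.6%), at Aars2 (8.33), at Plch2 (20.1) and at Cwc22 (100 against 99.99 in the others).

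The Tet2 difference at the intronic region nearest Prickle1 differed between replicate pairs by −88.8 percentile points (limma interaction, adjusted p = 0.0212), since it was 40.2 in replicates 1 and 2 and −48.6 in replicates 3 and 4.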

How the results depend on the processing

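With peaks ranked by fold enrichment, 138 regions were higher and 78 lower without Tet2 outside 20 Mb of Tet2. With 30000 peaks per list 137 were higher. Among regions in all 16 lists 60 were higher, 83 were lower and 6 were called near Tet2. On normal scores of the rank the counts were 53, 45 and 6, within GC deciles 116, 101 and 5, and without strata 50, 63 and 6. Ranking promoters and other peaks apart left 120 lower. With p300 present alone the counts were 0, 0 and 0. With p300 absent alone 122 were higher and 6 were called near Tet2. Replicates 1 and 2 alone gave 18, 28 and 1, and replicates 3 and 4 alone 107 higher. The cause of these moves was not tested, apart from the smaller number of libraries or regions in a fit.

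With the replicate block (p300 status by replicate number), 108 regions were higher and 108 lower, and 212 of these 216 were among the 413. Samples with the same number shared only that number. Of the 50 named regions, 40 kept their call under the replicate block and 10 lost it, and 28 lost it on normal scores. By fold enrichment 27 kept their call and 21 lost it. No call for a Tet2 difference that depended on p300 appeared under the replicate block or on normal scores (0 each). Over the 32 settings 49 of the 50 named regions never changed sign where they were tested, and some settings did not test every region. The Aunip promoter region at chr4:134510710 changed to 7.44 within GC deciles (adjusted p = 0.480 by limma).

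Leaving out each library in turn gave 95 to 318 higher, 97 to 323 lower and 7 to 17 called near Tet2. The lowest counts were without P300KO_TET2KO replicate 2 (95 and 97) and, near Tet2, without P300KO_TET2KO replicates 1 and 4 (7 each), and the highest without WT replicate 1. Counts below those reported by over 1.5 times in a direction also came without TET2KO replicates 1 and 2, P300KO replicates 3 and 4 and P300KO_TET2KO replicates 1, 3 and 4 (99 to 140 higher). Of the 50 named regions 38 were tested and kept their call in all 16 of these fits, 3 kept it but fell under the list minimum in some, and 9 lost it in at least 1.

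Regions with the same sign in all 4 strata numbered 3202 higher and 2195 lower with 30000 peaks, and 9682 higher with 80000. Regions without overlap in any stratum numbered 192 higher and 122 lower with 30000 peaks, and 538 higher with 80000. With 30000 peaks 2 of the 6 whole-list measures passed. Consensus strings that passed numbered 1 with 30000 peaks, 6 with 80000 and 5 by fold enrichment, and 0 to 4 when a library was left out (4 without WT replicate 1). The difference in median peak length was 69.6 bp with p300 present, 100.8 bp with p300 absent, 138 bp in replicates 1 and 2 and 32.6 bp in replicates 3 and 4, where the exact permutation test cannot go below 0.0556, so that 0 measures could pass. Leaving out a library gave 67.4 to 103 bp and 0 to 2 measures passing, with 0 without TET2KO replicate 1 or 2. What depth limits could not be read, because the lists give no reads.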
